A study of Mus musculus with 72 samples.

Results

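*Eif4e3*, *Gpc1*, *Prss8* and *Ntrk2* are 4 genes of unrelated families, none of them a lipid synthesis gene, that were picked because their liver levels differed between a 45% fat diet and a 10% fat diet. They are 4 of the 55416 genes in the count table, and each had 1 row. The values that picked them are the liver diet differences in both maternal groups. Those differences are described below without p-values for the 4 genes, and calls made there are a description and no test. Their levels in epididymal white adipose tissue (eWAT) and pituitary, and the differences between offspring of FED and CR20 dams, were not part of that choice and were tested, although the maternal comparisons in liver reuse the same libraries.

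The livers, eWAT and pituitaries of the same 24 adult male mice were sequenced, which gave 72 libraries. The mice were of a sighted FVB strain (FVB.129P2-Pde6b+ Tyrc-ch/AntJ), in 4 groups of 6. FED mice were born to dams with free access to food, and CR20 mice to dams given 20% less food from late gestation on. From 8 weeks of age the offspring ate the 10% fat diet (FED-CTRL and CR20-CTRL) or the 45% fat diet (FED-HFD and CR20-HFD), for 10 weeks. All 4 groups carry the same genotype. The labels do not tie a mouse to a litter, so mice of a group may share a dam.

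The 4 genes act at different places in the cell. *Eif4e3* encodes an atypical member of the eIF4E family, whose members bind the cap of messenger RNAs and set how well they are translated. *Gpc1* encodes glypican-1, a proteoglycan anchored in the cell membrane, whose heparan sulfate chains bind growth factors. *Prss8* encodes prostasin, a membrane-anchored serine protease of epithelia that works in a cascade with matriptase and raises the activity of the epithelial sodium channel. *Ntrk2* encodes TrkB, the receptor of the neurotrophins BDNF and NT-4, known mainly from neurons, and its locus also gives truncated receptors that lack the kinase.

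The libraries held 9842813 to 27601208 counted reads. Liver libraries were the shallowest, with a median of 14479000 reads against 19723800 in eWAT and 21931300 in the pituitary, and the liver medians of the FED-HFD and CR20-HFD groups (13463700 and 13194200) were under those of FED-CTRL and CR20-CTRL (17987900 and 16017900). The tissues matched their labels by their main markers: the hepatocyte marker list summed to 73027 to 115835 CPM (counts scaled to library size) in every liver, and all 8 of its genes were detected. As log2 of the summed CPM, the adipocyte list reached 13.4 to 15.0 in eWAT and the pituitary endocrine list 17.9 to 18.5 in pituitary. Some eWAT libraries also held hepatocyte, epididymis or epithelial genes, as described below. In liver, the summed cholangiocyte list ranged from 23.0 to 45.5 CPM and overlapped between all 4 groups. In bulk tissue, fewer cells of a type and less RNA per cell cannot be told apart. A gene is called below where edgeR's quasi-likelihood test, adjusted by the Benjamini-Hochberg method, gave an adjusted p of at most 0.055 and where, in addition, the log2 fold change (log2FC) was 1 or more in size.

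In the liver, *Eif4e3* and *Gpc1* were higher on the high fat diet, and *Prss8* and *Ntrk2* were lower, in the offspring of both kinds of dam. In FED offspring the differences were 2.56-fold for *Eif4e3*, 2.33-fold for *Gpc1*, 3.83-fold for *Prss8* and 2.22-fold for *Ntrk2*. In CR20 offspring they were 2.13-fold, 1.55-fold, 4.22-fold and 4.66-fold. In FED offspring 3 of the 4 genes were called, where 0.0943% of the 13787 genes tested were called. In CR20 offspring 3 were called, where 0.377% were called. *Ntrk2* was not called in FED offspring and *Gpc1* was not called in CR20 offspring. Since the genes were picked from these comparisons, nothing is read from those counts. The count in FED offspring, and in CR20 offspring the call of *Eif4e3*, rested on single livers. In FED offspring none of the 4 genes was called without FED-HFD mouse 23, and only *Eif4e3* was without FED-HFD mouse 11 or mouse 12. In CR20 offspring *Eif4e3* was not called when any of CR20-CTRL mice 47, 48 and 49 or CR20-HFD mice 6, 31 and 46 was left out, while *Prss8* and *Ntrk2* were called whichever mouse was left out. Genes picked for these differences tend to stay called, so the calls that remained lend them no support.

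**Figure D1:**
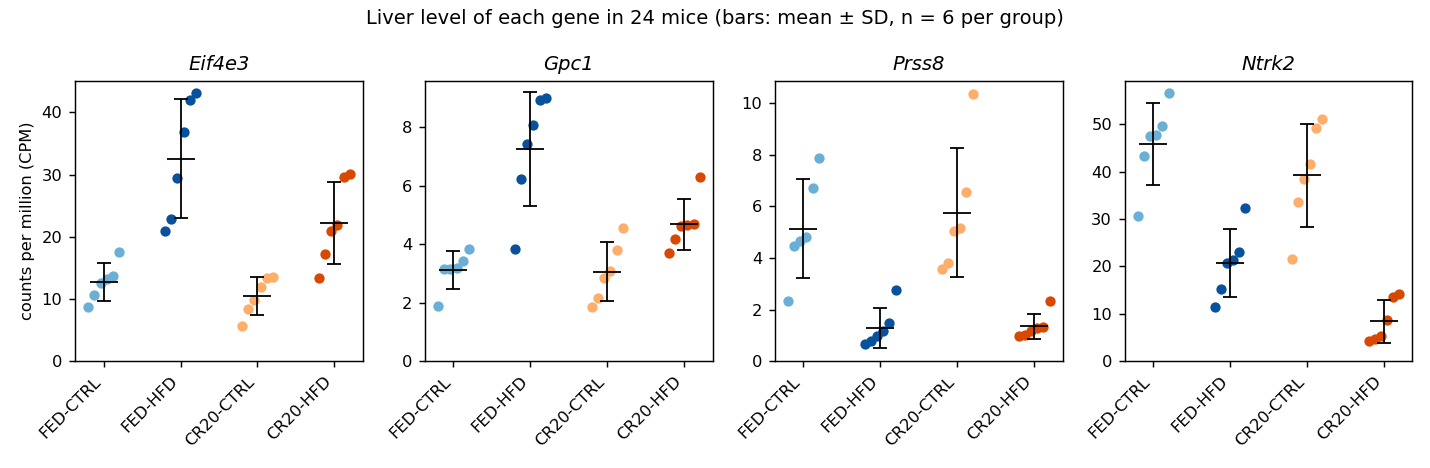
Liver levels in CPM for each of the 24 mice, one panel per gene with its own scale starting at 0. Points are mice, drawn from the lowest to the highest within a group, and bars give the mean ± SD of 6 mice. *Eif4e3* and *Gpc1* sit higher and *Prss8* and *Ntrk2* lower in both HFD groups, and *Ntrk2* is lowest in CR20-HFD, at 4.26 to 14.1 CPM.

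*Eif4e3* (ENSMUSG00000093661, chromosome 6: 99602081-99643784, minus strand, GRCm39) was the most abundant of the 4 genes in liver per length of transcript. It ranged from 8.75 to 17.5 CPM (median 12.9) in FED-CTRL livers and from 21.0 to 43.2 CPM (median 33.1) in FED-HFD livers, so these groups did not overlap. In CR20-CTRL livers it ranged from 5.60 to 13.5 CPM (median 10.9) and in CR20-HFD livers from 13.4 to 30.2 CPM (median 21.4). The CR20 groups touched at a single mouse, CR20-HFD mouse 45, whose 13.4 CPM lay within the CR20-CTRL range. The log2FC was 1.35 ± 0.237 (SE, 6 mice against 6) in FED and 1.09 ± 0.238 in CR20 offspring. The row shares 399 exon bases with Gm20696 on the same strand, a gene with 0 to 3 counts in each liver, so few reads were given to that neighbour.

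*Gpc1* (ENSMUSG00000034220, chromosome 1: 92759062-92792113, plus strand) was low in liver, with 32 to 123 counts per library. FED-CTRL livers held 1.89 to 3.82 CPM (median 3.18) and FED-HFD livers 3.85 to 9.01 CPM (median 7.77). These groups did not overlap, although the lowest FED-HFD mouse, mouse 40, lay just above the highest FED-CTRL mouse. CR20-CTRL livers held 1.87 to 4.57 CPM (median 2.98) and CR20-HFD livers 3.69 to 6.29 CPM (median 4.64), which overlapped. The log2FC was 1.22 ± 0.226 in FED and 0.63 ± 0.227 in CR20 offspring. *Gpc1* shares 1600 exon bases with Ankmy1 on the opposite strand, which had 0 to 4 counts in each liver.

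*Prss8* (ENSMUSG00000030800, chromosome 7: 127524888-127529294, minus strand) had the fewest reads of the 4, from 7 to 146 per liver. It ranged from 2.35 to 7.86 CPM (median 4.72) in FED-CTRL and from 0.654 to 2.76 CPM (median 1.07) in FED-HFD livers. The overlap came from FED-CTRL mouse 15 at 2.35 CPM and FED-HFD mouse 10 at 2.76 CPM. In CR20 offspring it ranged from 3.59 to 10.4 CPM (median 5.10) on the control diet and from 0.973 to 2.33 CPM (median 1.24) on the high fat diet, with no overlap. The log2FC was -1.94 ± 0.344 in FED and -2.08 ± 0.343 in CR20 offspring, the most even pair of values among the 4 genes. *Prss8* shares 122 exon bases with Kat8 on the opposite strand, a histone acetyltransferase gene with 134 to 429 counts per liver, whose own log2FC values were -0.08 and 0.19.

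*Ntrk2* (ENSMUSG00000055254, chromosome 13: 58954176-59281784, plus strand) was the gene whose diet difference was furthest apart between FED and CR20 offspring. FED-CTRL livers held 30.7 to 56.5 CPM (median 47.6) and FED-HFD livers 11.4 to 32.3 CPM (median 21.0). FED-HFD mouse 23 at 32.3 CPM lay above FED-CTRL mouse 15 at 30.7 CPM, and otherwise the groups were apart. CR20-CTRL livers held 21.7 to 51.1 CPM (median 40.1) and CR20-HFD livers 4.26 to 14.1 CPM (median 6.96), with no overlap. The log2FC was -1.15 ± 0.284 in FED and -2.22 ± 0.296 in CR20 offspring. With 40 annotated transcripts in 1 row, the counts cannot separate the full-length receptor from the truncated forms.

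Of the 4 genes, only *Ntrk2* matched an entry in the promoter table used here, which is from RefSeq on build GRCm38.p6, another build than that of the counts. It is printed to show the start region of the gene with the most uneven diet difference. The 250 bases before the annotated start are given 5′ to 3′ on the plus strand of chr13:58806319-58806568, with each CG dinucleotide in capitals.
Ntrk2 promoter: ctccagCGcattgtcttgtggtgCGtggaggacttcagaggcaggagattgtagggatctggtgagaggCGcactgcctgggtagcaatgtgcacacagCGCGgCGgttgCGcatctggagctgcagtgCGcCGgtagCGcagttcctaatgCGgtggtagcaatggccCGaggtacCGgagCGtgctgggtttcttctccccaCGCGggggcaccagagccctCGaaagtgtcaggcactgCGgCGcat
The window held 19 CG dinucleotides and 62.8% G and C, against a median of 52.4% over all promoters of the table, and 78.3% of them had a lower share. On both strands it held no match to a GC box (GGGCGG, present in 32.7% of all promoters over the same 250 bases), a CCAAT box (CCAAT, 33.8%), a TATA box (TATAAA, 12.4%), an E-box (CACGTG, 6.02%) or the core of a cAMP response element (TGACG, 17.8%). These letters are a description of the window and carry no reading of which factors act there.

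Other genes of the same families were counted for comparison. Of the other genes of each family list, 0 of 17 tested in the eIF4E list, 0 of 22 in the glypican, syndecan and heparan sulfate list, 0 of 13 in the prostasin list and 0 of 12 in the neurotrophin list were called in FED offspring, and the same numbers held in CR20 offspring. With 0.0943% and 0.377% of all genes called, lists of this size would seldom hold a called gene, so these counts do not set the 4 genes apart from their families. The medians of these 4 lists lay between -0.10 and 0.17 in log2FC in FED and between -0.07 and 0.15 in CR20 offspring, beside medians over all genes of -0.0006 and -0.0035. The lipogenesis list differed: 2 of 21 genes were called in FED offspring and 11 of 21 in CR20 offspring, all lower, with median log2FC values of -1.27 and -1.51. Among them, Scd1, the desaturase that makes monounsaturated fatty acids, had log2FC values of -3.93 ± 0.524 and -5.39 ± 0.562, and Me1, malic enzyme, of -1.43 ± 0.239 and -2.08 ± 0.244. In CR20 offspring the glucose transporter gene Slc2a4 (-2.97 ± 0.510) and the acetyl-CoA carboxylase gene Acacb (-2.95 ± 0.524) came next by p, while by size Pnpla3, a lipid droplet protein gene, was second to Scd1 (-4.93 ± 0.951).

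**Figure D2:**
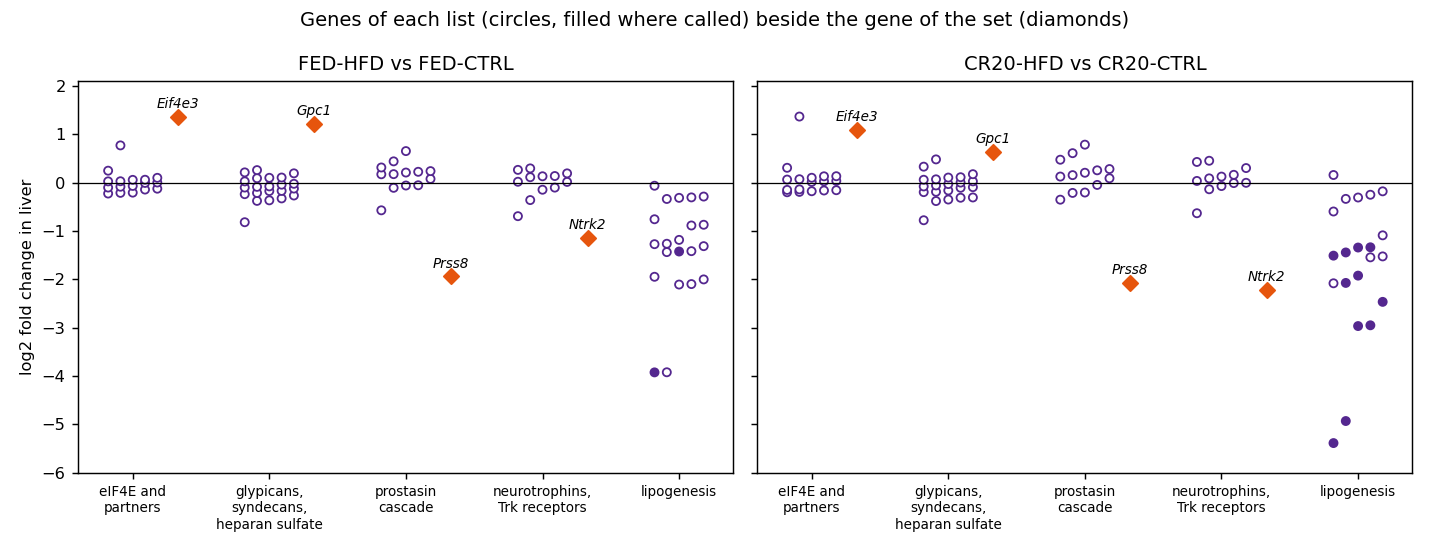
Liver log2FC of high fat against control diet in FED offspring (left) and CR20 offspring (right), for the genes of 5 lists (circles, filled where called) and for the 4 genes (diamonds) beside the list each belongs to. No circle is filled in the first 4 lists, while 2 and 11 of the 21 lipogenesis genes are filled, all below 0.

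Direct relatives and partners were measured at levels that allow a comparison. Eif4e, the main cap-binding protein, stood at a median of 8.17 FPKM in liver, a level scaled to both depth and exon length,, beside 7.48 for *Eif4e3*, and its log2FC values were -0.21 ± 0.118 in FED and -0.14 ± 0.118 in CR20 offspring (edgeR, adjusted p = 0.858 and 0.674). Eif4e2 behaved alike in size, with -0.13 and -0.15. Eif4ebp3, a repressor of eIF4E, had the largest value of that list, 0.77 ± 0.414 in FED and 1.37 ± 0.420 in CR20 offspring, but did not pass the test (edgeR, adjusted p = 0.836 and 0.203). Gpc4 was the main glypican of the liver, at 14.1 FPKM against 0.541 for *Gpc1*, and its log2FC was 0.10 ± 0.204 in FED and 0.07 ± 0.204 in CR20 offspring.

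The prostasin partner St14 (matriptase) was low in liver, at a median of 0.0904 FPKM and 2 to 20 counts, while the inhibitor Spint2 stood at 14.0 FPKM, with log2FC values of 0.31 ± 0.160 and 0.15 ± 0.160 (edgeR, adjusted p = 0.784 and 0.743). Among the ligands of Trk receptors, Bdnf had a median of 0.297 FPKM and log2FC values of -0.70 ± 0.362 and -0.63 ± 0.361 (edgeR, adjusted p = 0.807 and 0.564). Ntf5, the gene of NT-4, had at most 1 count per liver. The receptor gene Ntrk3 had at most 11 counts per liver.

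Markers of the liver's cell types were checked beside these values. In FED offspring none of the genes in the hepatocyte (8 tested), cholangiocyte (6), stellate cell (9), Kupffer cell (7), endothelial (6), pericentral (7) and periportal (7) lists was called, and the same held in CR20 offspring. By direction alone, all 9 stellate cell genes and all 6 endothelial genes had a log2FC below 0 in FED offspring (medians -0.50 and -0.38), against 5 of 9 and 4 of 6 in CR20 offspring (medians -0.02 and -0.09), and 1 pericentral gene reached an adjusted p of 0.0385 in edgeR without the size needed for a call. The summed stellate cell list had medians of 274.8, 211.5, 239.9 and 222.4 CPM in FED-CTRL, FED-HFD, CR20-CTRL and CR20-HFD livers, with ranges that overlapped within both maternal groups. The summed pericentral list had medians of 10613, 11868, 8416 and 12052 CPM in the same order. The summed Kupffer cell list had medians of 418.7, 499.3, 418.4 and 493.3 CPM, with ranges that overlapped within both maternal groups. Their part in the diet differences was not tested. Of the lists of sex-biased liver genes, 0 of 15 male-biased and 0 of 10 female-biased genes tested were called in either comparison.

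The next comparison asks whether the mother's food intake altered the liver levels of the 4 genes. On the control diet they differed little between CR20 and FED offspring, with log2FC values from -0.29 (*Eif4e3*) to 0.16 (*Prss8*). On the high fat diet *Ntrk2* was 2.45-fold lower in CR20 than in FED offspring, at a mean of 8.42 ± 4.48 against 20.7 ± 7.17 CPM (SD, n = 6 each). Its log2FC of -1.29 ± 0.290 had an unadjusted p of 0.000159 in edgeR, but an adjusted p of 0.9998 over all genes, so it was not called. Since CR20-HFD and FED-HFD livers were also part of the comparisons that picked *Ntrk2*, the unadjusted value is not independent of that choice. The groups overlapped, as CR20-HFD mice 45 and 46, at 14.1 and 13.5 CPM, lay above FED-HFD mouse 40 at 11.4 CPM.

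The other genes showed smaller maternal differences on the high fat diet. *Gpc1* had a log2FC of -0.62 ± 0.222 and *Eif4e3* of -0.55 ± 0.233, with unadjusted p of 0.00953 and 0.0263 in edgeR. Both had an adjusted p of 0.9998 in edgeR. Their unadjusted values are not independent of the choice either, since the same livers were part of the comparisons that picked these genes. *Prss8* differed by 0.02 ± 0.363. None of the 4 genes was called in either maternal comparison in liver or over both diets, and neither was any of the 13787 genes by edgeR (percent called 0). DESeq2 called 0, 1 and 2 genes on the control diet, on the high fat diet and over both diets, and limma voom with quality weights 0, 0 and 1, none of them among the 4. In edgeR, 2.17%, 3.58% and 4% of all genes had an unadjusted p under 0.05 on the control diet, on the high fat diet and over both diets. Over both diets, the log2FC of CR20 against FED offspring was -0.76 ± 0.201 for *Ntrk2*, -0.42 ± 0.166 for *Eif4e3*, -0.33 ± 0.159 for *Gpc1* and 0.09 ± 0.240 for *Prss8*. As a description, the diet log2FC in CR20 minus that in FED offspring was -1.07 ± 0.401 for *Ntrk2*, -0.59 ± 0.319 for *Gpc1*, -0.27 ± 0.332 for *Eif4e3* and -0.14 ± 0.479 for *Prss8*.

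**Figure D3:**
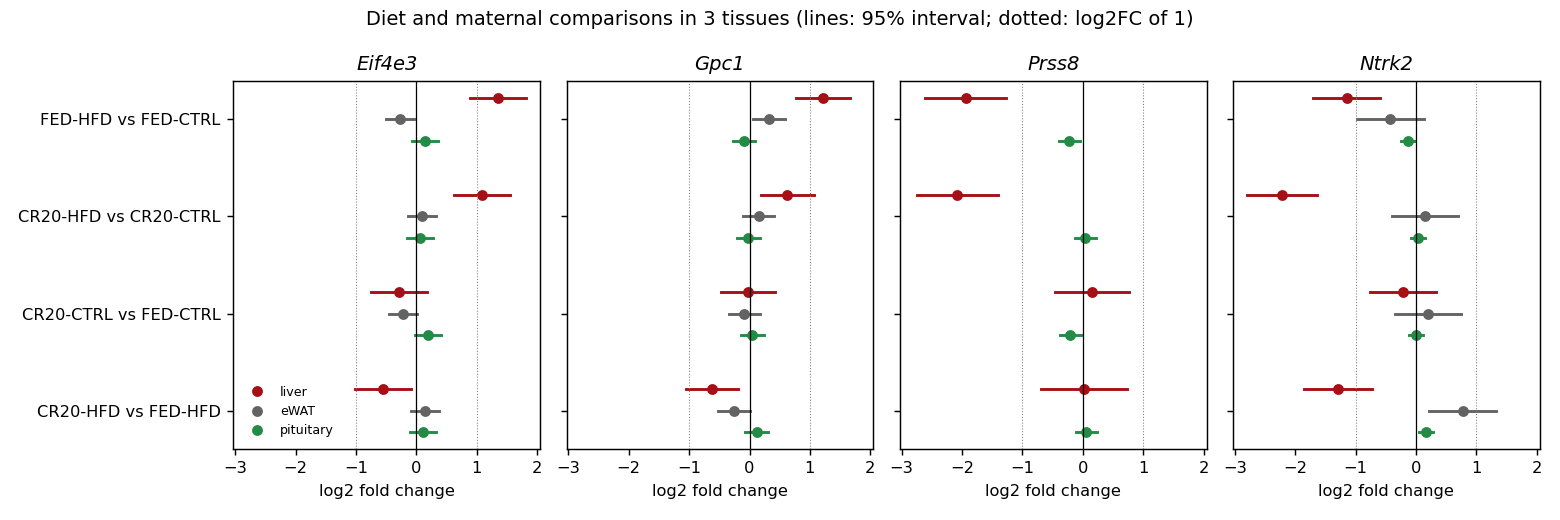
The log2FC of each gene in the diet comparisons and the maternal comparisons, in liver, eWAT and pituitary, with lines for the 95% interval and dotted lines at an absolute log2FC of 1. Values past the dotted lines occur in liver alone, and *Prss8* has no eWAT value because it did not pass the filter on low counts there.

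Pooled over the groups, no pair of the 4 genes passed the test for varying together among mice of the same group in liver. After each gene's log2 CPM was centred on its group mean, the 6 pairwise correlations over 24 mice ran from r = -0.13 to 0.40, with Spearman's rho from -0.03 to 0.37. The highest was that of *Gpc1* and *Ntrk2* (r = 0.40, rho = 0.37), with a permutation p of 0.0502 for r and 0.0970 for rho, adjusted over the 6 pairs to 0.301 and 0.582, and without the 2 mice farthest from the median of *Gpc1* r was 0.19. The other pairs had permutation p from 0.136 to 0.832 for r. Single groups of 6 mice spread widely around these values, given here as a description. In FED-CTRL livers r was 0.97 for *Gpc1* and *Ntrk2*, 0.90 for *Gpc1* and *Prss8* and 0.84 for *Prss8* and *Ntrk2*, while in CR20-CTRL livers the same pairs had -0.17, 0.46 and 0.34. FED-CTRL mouse 15 was the lowest of its group in *Gpc1*, *Prss8* and *Ntrk2*, at log2 CPM of 1.02, 1.31 and 4.94. The part of this mouse in the FED-CTRL values was not tested. For *Eif4e3* and *Gpc1*, r was -0.79 in CR20-HFD and 0.52 in CR20-CTRL livers. Without centring, the correlations were 0.73 for *Prss8* and *Ntrk2*, 0.64 for *Eif4e3* and *Gpc1* and -0.71 for *Eif4e3* and *Prss8*, values that include the differences between the diet groups.

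Each gene's pattern was then compared with 12168 other named protein-coding genes over the 24 livers. These correlations are descriptions: all points share libraries and diet groups, and the most like genes were taken from many. For *Prss8* the 3 most like genes were Me1 (r = 0.93), Scd1 (r = 0.92) and Acacb (r = 0.91), all in the lipogenesis list, and after centring on group means r was 0.71, 0.62 and 0.66. Over the whole lipogenesis list of 21 genes, the correlation with *Prss8* had a median of 0.74 and was above 0 for 20 genes, and after centring a median of 0.24 and was above 0 for 17. *Ntrk2* was most like Scd1 (r = 0.84), the nucleotide sugar transporter gene Slc35c2 (r = 0.83) and Slc44a3 (r = 0.82), with centred values of 0.53, 0.76 and 0.59. Its median over the lipogenesis list was 0.67, and 0.21 after centring. *Eif4e3* and *Gpc1* ran the other way, with medians of -0.61 and -0.52 and none of the 21 genes above 0, and with -0.25 and -0.02 after centring. The centred correlation with the mean of the list was 0.40 for *Prss8* and fell to 0.0947 without the 2 mice farthest from the median of that mean.

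For *Eif4e3* the most like genes were Cyp2a5, a cytochrome P450 gene (r = 0.89), and the MHC class II antigen presentation genes H2-Ab1 (r = 0.87) and H2-DMa (r = 0.86). The centred values were 0.69, 0.81 and 0.82, which come from the same livers that picked these genes. The log2FC values of H2-Ab1 and H2-DMa were 1.32 and 1.40 in FED and 0.61 and 0.64 in CR20 offspring. For *Gpc1* the most like genes were Sema5b (r = 0.78), a semaphorin gene, Fitm1 (r = 0.75), a gene of lipid droplet formation, and Lect2 (r = 0.73), a secreted liver protein gene, with centred values of 0.46, 0.57 and 0.52. The lowest correlations were those of Maged1 (-0.81) and Fabp5 (-0.79) with *Eif4e3*, Gask1a (-0.74) and Iws1 (-0.73) with *Gpc1*, Nr1i3 (-0.81) and Cyp2c37 (-0.79) with *Prss8*, and Dnai1 (-0.76) and Clk1 (-0.74) with *Ntrk2*.

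**Figure D4:**
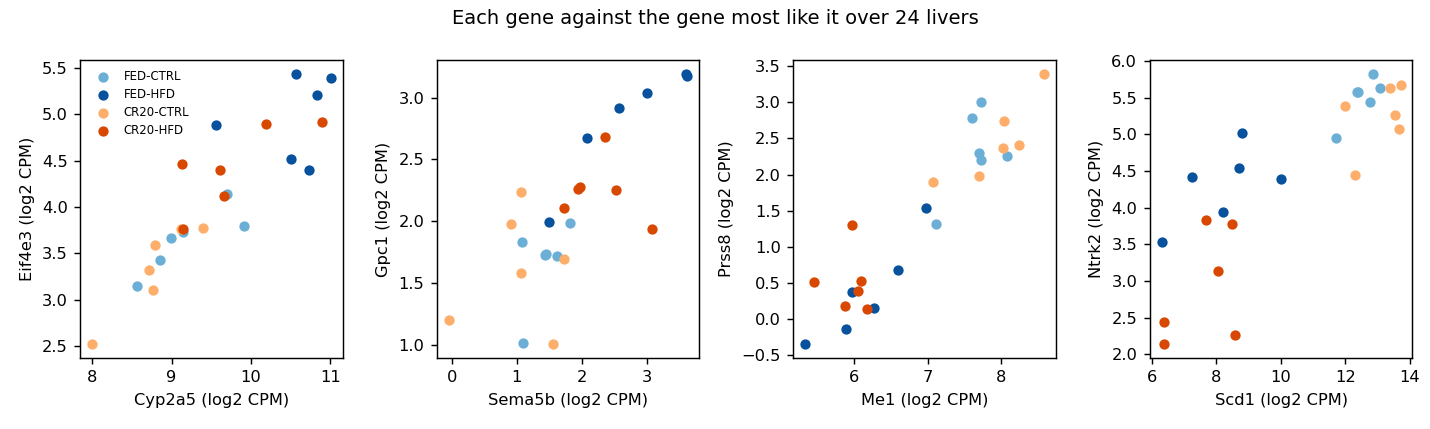
Log2 CPM of each gene against the gene with the highest correlation over 24 livers: Cyp2a5 for *Eif4e3*, Sema5b for *Gpc1*, Me1 for *Prss8* and Scd1 for *Ntrk2*. Each point is a mouse coloured by group, and for *Prss8* and *Ntrk2* most control diet livers lie at the upper right and most high fat diet livers at the lower left.

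In eWAT, none of the 3 genes that passed the filter on low counts was called in any of the 6 comparisons, where 4.7% of all genes were called between FED-HFD and FED-CTRL, 5.49% between CR20-HFD and FED-HFD, 1.85% between CR20 and FED over both diets, 2.27% for the difference of the diet effects, and 0% in the remaining comparisons. At an unadjusted p under 0.05 the shares of all genes were 25.7%, 29.8%, 24.3% and 18.2% in the first 4 and 6.03% and 7.39% in the diet comparison of CR20 offspring and the maternal comparison on the control diet. *Eif4e3*, higher in liver on the high fat diet, had eWAT log2FC values of -0.27 ± 0.119 in FED (edgeR, adjusted p = 0.147) and 0.09 ± 0.119 in CR20 offspring (edgeR, adjusted p = 0.953). In FED offspring an exact permutation test gave p = 0.00866, not adjusted for the number of comparisons. *Gpc1* had 0.32 ± 0.133 (edgeR, adjusted p = 0.126) and 0.15 ± 0.133 (edgeR, adjusted p = 0.945). Whether the diet effect differed between tissues was not tested.

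Among the 3 genes tested in eWAT, *Ntrk2* gave the largest maternal difference. CR20-HFD eWAT held 143.8 to 235.8 CPM (median 194.3) and FED-HFD eWAT 28.5 to 175.7 CPM (median 117.4), which overlapped. The log2FC was 0.77 ± 0.281 in edgeR, with an unadjusted p of 0.0113 and an adjusted p of 0.0649. An exact permutation test over the 12 mice gave p = 0.0108 (two-sided, not adjusted). The liver value of the same comparison was below 0, and the difference between the tissues was not tested. FED-HFD mouse 23 was the lowest, at 28.5 CPM, and its eWAT library had a summed adipocyte list of 10032 CPM and a summed macrophage list of 3492 CPM, beside 21663 to 27399 and 823.2 to 1485 CPM in the other FED-HFD libraries. Without that mouse the log2FC was 0.58 ± 0.210 (edgeR, adjusted p = 0.0923). With the range of animal numbers as a covariate it was 1.02 ± 0.266 (edgeR, adjusted p = 0.0134), and *Ntrk2* was then called.

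In eWAT a few genes of the family lists were called. The syndecan genes Sdc1 and Sdc3 and Xylt1, which starts heparan sulfate chains, were higher in FED-HFD than FED-CTRL (log2FC 1.86 ± 0.394, 1.40 ± 0.251 and 1.40 ± 0.322) and lower in CR20-HFD than FED-HFD (-1.80 ± 0.394, -1.54 ± 0.252 and -1.75 ± 0.327), which are 3 of the 24 other genes tested in that list. Both comparisons share the FED-HFD libraries, in which the macrophage list summed to a median of 1127 CPM, beside 539.5 CPM in FED-CTRL and 467.8 CPM in CR20-HFD, and its part in these values was not tested. The Trk receptor gene Ntrk3 was higher in CR20-HFD than FED-HFD (1.35 ± 0.338). Over both diets CR20 eWAT was higher in Ntrk3 (1.08 ± 0.235), the sortilin family gene Sorcs2 (2.45 ± 0.696) and the sodium channel subunit gene Scnn1a (1.49 ± 0.429). These list genes are named because they were called, in a comparison where 1.85% of all genes were. The epithelial genes Epcam (1.92 ± 0.483) and Sox9 (1.33 ± 0.381) were called in the same comparison, and 4 CR20 libraries that hold epididymis or epithelial genes are described next. Without those 4 libraries, a fit chosen after the data were seen, Ntrk3 was still called (1.15 ± 0.239), whereas Sorcs2 (0.38 ± 0.371, edgeR, adjusted p = 0.576) and Scnn1a (0.47 ± 0.162, edgeR, adjusted p = 0.0934) were not.

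*Prss8* was close to background in most eWAT libraries and did not pass the filter. In 21 of 24 libraries it had 0 to 10 counts, at most 0.495 CPM. The exceptions were CR20-CTRL mouse 5 with 268 counts (19.4 CPM), CR20-CTRL mouse 4 with 83 counts (4.12 CPM) and CR20-HFD mouse 7 with 44 counts (3.41 CPM). A list of 12 epididymis and testis genes summed to 134.3 CPM in CR20-CTRL mouse 4, 52.4 CPM in CR20-CTRL mouse 5 and 31.8 CPM in CR20-HFD mouse 6, and to at most 0.0609 CPM in the other 21 libraries, with 8 of its 12 genes detected and Lcn5, Lcn9, Cst8 and Cst11 at 0. CR20-HFD mouse 6 had no *Prss8* count and CR20-HFD mouse 7 had no count of that list, so both measures were high together in 2 libraries and apart in these others. The epithelial genes Epcam and Spint1, the second an inhibitor of matriptase, were looked at after these values were seen. Spint1 had 205, 58 and 15 counts in mice 5, 4 and 7, beside 0 to 5 in the other 21 libraries, and Epcam had 814, 361 and 127 counts, beside 14 to 110. In mouse 5 the hepatocyte list also summed to 768.3 CPM of all counted reads, as it did to 772.3 CPM in FED-HFD mouse 10 and 160.0 CPM in FED-HFD mouse 13 and lay lower in the other 21 libraries. The part of such cells in the *Prss8* values was not tested.

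Without the filter, *Prss8* was higher in CR20 than FED eWAT over both diets by a log2FC of 3.05 ± 0.778 (edgeR, adjusted p = 0.0352), and it was then called. Group medians were 0.193 CPM in FED-CTRL, 0.158 in FED-HFD, 0.430 in CR20-CTRL and 0.281 in CR20-HFD. An exact permutation test, not adjusted, gave p = 0.180 between CR20-CTRL and FED-CTRL and 0.292 between CR20-HFD and FED-HFD. Leaving out the 3 libraries with epididymis genes as well as the filter, the log2FC over both diets was 1.24 ± 0.541 (edgeR, adjusted p = 0.265), and *Prss8* was not called. That fit kept CR20-HFD mouse 7, with 44 counts, and dropped CR20-HFD mouse 6, with 0. Between CR20-HFD and FED-HFD it gave 2.24 ± 0.728 (edgeR, adjusted p = 0.0648), beside 1.97 ± 1.12 with all libraries (edgeR, adjusted p = 0.367). For *Prss8*, no fit without mouse 7 as well was run. The fit that leaves out the 3 libraries was chosen after the counts were seen.

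In the pituitary, none of the 4 genes was called in any comparison and neither was any other gene by edgeR (percent called 0), while DESeq2 called 4 genes for diet in FED offspring and 1 between CR20-CTRL and FED-CTRL, and limma voom with quality weights 5 in the latter, none of them among the 4. The share with an unadjusted p under 0.05 ran from 6.77% to 17.3% over the 6 comparisons. All log2FC values of the diet and maternal comparisons lay between -0.22 and 0.19, and for *Ntrk2* the standard error was 0.06. *Prss8* was lower in FED-HFD than FED-CTRL by a log2FC of -0.22 ± 0.088 and in CR20-CTRL than FED-CTRL by -0.21 ± 0.088, with adjusted p of 0.399 and 0.226 in edgeR. *Ntrk2* was higher in CR20-HFD pituitaries (193.1 to 224.9 CPM, median 193.9) than in FED-HFD pituitaries (172.6 to 185.4 CPM, median 177.9), without overlap, by a log2FC of 0.16 ± 0.062 with an adjusted p of 0.604 in edgeR. An exact permutation test over the 12 mice gave p = 0.00216 (two-sided, not adjusted), the smallest it can give. In the same comparison this permutation test gave p = 0.299 for *Eif4e3*, 0.318 for *Gpc1* and 0.563 for *Prss8*.

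Levels were compared between tissues as FPKM, with the summed exon length of each gene. *Gpc1* had medians of 6.25 FPKM in eWAT, 3.08 in pituitary and 0.541 in liver. *Ntrk2* had 5.71 in pituitary, 4.34 in eWAT and 1.25 in liver, so liver was the lowest tissue for both. *Prss8* followed another order, with 8.87 FPKM in pituitary, 1.92 in liver and 0.100 in eWAT. *Eif4e3* was the most even, with 15.5 in eWAT, 10.6 in pituitary and 7.48 in liver, and FED-HFD livers, at 15.3 ± 4.49 FPKM (SD, n = 6), stood beside FED-HFD eWAT, at 13.9 ± 2.23 FPKM (SD, n = 6).

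In a fit over all 72 libraries, 3 of the 4 genes were called between liver and eWAT (51.7% of all genes were), 3 between liver and pituitary (62.3%) and 2 between eWAT and pituitary (54.1%), shares near the background. *Gpc1* was lower in liver than eWAT by a log2FC of -3.44 ± 0.0840 and than pituitary by -2.37 ± 0.0816, and *Ntrk2* was lower in liver by log2FC values of -1.96 ± 0.124 and -2.41 ± 0.125. *Prss8* was higher in liver than eWAT by 2.97 ± 0.340 and lower than in pituitary by -2.18 ± 0.270. *Eif4e3* differed by under 1 between all tissues, with -0.86 ± 0.0858 for liver against eWAT. *Ntrk2* differed between eWAT and pituitary by -0.45 ± 0.118, and neither value reached the size needed for a call. Liver RNA was extracted with another kit than eWAT and pituitary RNA, so kit and tissue cannot be told apart. Like *Prss8*, its partners were highest in the pituitary: St14 had medians of 5.70 FPKM in pituitary, 0.228 in eWAT and 0.0904 in liver, and Spint1 of 20.5, 0.0138 and 0.0610.

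**Figure D5:**
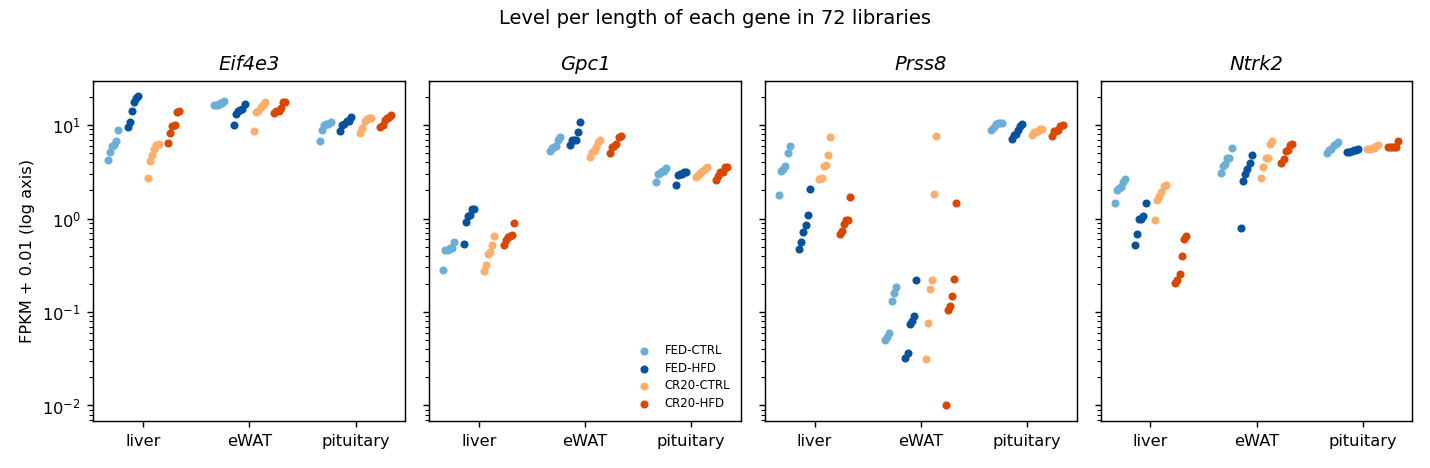
FPKM plus 0.01 on a log axis for each gene in liver, eWAT and pituitary. Each point is a library, coloured by group and drawn from the lowest to the highest within it. *Eif4e3* stays within 2.71 to 20.3 FPKM in every library, whereas *Prss8* in eWAT runs from 0 to 7.66 FPKM.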

How the data were processed

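RNA-seq was done on liver, eWAT and pituitary of 24 male mice. The deposited values are raw read counts per gene: the authors trimmed reads with Trimmomatic, aligned them to GRCm39 with STAR and counted them with featureCounts from Subread, and the strand setting is not given in the sources used here. The library kit is named in more than 1 way there, and the labels allow 10 or 16 weeks of diet, while the study places the sequenced males at 10 weeks.

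Each tissue was fitted alone (24 libraries, 4 group means) with edgeR 4.0.16 in R 4.3.3: TMM scaling, the filterByExpr filter, quasi-likelihood tests and Benjamini-Hochberg adjustment within a comparison. The SE is the log2FC divided by the root of its F. Log2 CPM used a prior count of 2. Tissues were compared in 1 fit over 72 libraries. FPKM is CPM scaled over all 72 libraries, divided by the summed exon length in GENCODE M39. Samples were grouped by their labels. The exact permutation test used all 924 splits of 12 mice (two-sided), and the permutation test of correlations 100000 resamples within groups. The exact test was run for each gene in each tissue and pair of groups. Its p-values were not adjusted, and only some of them are given here. The tests were also run on simulated data, whose outcome is not given here and lends the results no support.

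The genes, lists and tests were chosen with earlier results of these data known. Named list genes were those called, at most 4 per list and comparison by p, besides the direct relatives and partners, and the most like genes were the 3 with the highest and 2 with the lowest correlation. Limma 3.58.1 (voom, with and without quality weights), DESeq2 1.42.0, other filters and scalings, a covariate for the range of animal numbers, and leaving out each mouse were tried. The same mouse gave all 3 tissues, and deviations from group means correlated between its tissues with a median r of 0.0652, 0.0726 and 0.0506, so the mouse served as a block in an alternative fit. Counts carry no molecular identifiers. No 2 of the 72 libraries were identical.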

Additional observations from a re-analysis of the deposited data

Results flagged for a closer look

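In 5 of the 48 sets of 6 mice (each gene in each tissue and group), the highest or lowest mouse stood far from the rest by Dixon's criterion, which sets the gap to the nearest mouse against the whole range, and chance marks about 1 in 20 such sets. *Ntrk2* in the pituitary of CR20-HFD mouse 32 had a log2 CPM of 7.81, with the next highest mouse at 7.62. *Ntrk2* in the eWAT of FED-HFD mouse 23 had a log2 CPM of 4.84, with the next lowest at 6.52. *Gpc1* in the pituitary of the same FED-HFD mouse 23 had a log2 CPM of 4.61, with the next lowest at 4.98. *Gpc1* in the liver of FED-CTRL mouse 15 had a log2 CPM of 1.02 from 33 counts, with the next lowest at 1.71. *Prss8* in the liver of CR20-HFD mouse 31 had a log2 CPM of 1.30 from 34 counts, with the next highest at 0.54.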

How the results depend on the processing

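Many of the counts compared here were 0 in comparisons where edgeR called no gene at all, so they had little room to change. Counts of the 4 genes called stayed within 1.5 times their value in 206 of 209 alternatives and in 525 of 528 fits that left out a mouse. The exceptions were 1 called in eWAT over both diets with no filter (*Prss8*), 1 in eWAT between CR20-HFD and FED-HFD with the range of animal numbers as covariate (*Ntrk2*), 1 between eWAT and pituitary with DESeq2 size factors, where *Gpc1* was at 0.97, and 0 to 3 in the liver diet comparison of FED offspring when a mouse was left out. In that comparison 4 genes were called by DESeq2, by voom with quality weights and with only the groups compared, and in CR20 offspring 4 by voom with quality weights (*Gpc1* at 1.01) and 2 with only the groups compared. The cause was not tested, and since the liver diet comparisons picked the genes, these calls are a description. Over all genes, DESeq2 called 34 in FED and 86 in CR20 offspring, and voom with quality weights 37 and 67, beside 13 and 52 in edgeR. A fall from 3 called to 2 lies within 1.5 times and was not taken as an exception. Such falls were the loss of *Gpc1* in FED offspring without FED-CTRL mouse 14 or 15, and that of *Eif4e3* in CR20 offspring given above.

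These values turned sign. With voom and quality weights *Prss8* was at -0.0697 between CR20-CTRL and FED-CTRL livers and -0.0305 over both diets, *Eif4e3* at -0.0105 for diet in CR20 eWAT, and *Ntrk2* at 0.0105 between CR20-CTRL and FED-CTRL pituitaries (0.00269 without weights). *Prss8* was at -0.00185 between CR20-HFD and FED-HFD livers with no filter, *Eif4e3* at 0.0101 in eWAT over both diets without the 3 libraries with epididymis genes, and *Gpc1* at 0.0104 for diet in CR20 pituitaries with the covariate. Leaving out a mouse, ranges crossed 0 for *Prss8* in liver (-0.0387 to 0.28 over both diets, -0.0924 to 0.32 on the control diet, -0.21 to 0.41 on the high fat diet), *Gpc1* between CR20-CTRL and FED-CTRL (-0.18 to 0.0803 in liver, -0.00878 to 0.0694 in pituitary), *Ntrk2* there in pituitary (-0.0412 to 0.0230), *Gpc1* for diet in CR20 pituitaries (-0.0430 to 0.0367), the pituitary diet difference of *Eif4e3* between CR20 and FED (-0.14 to 0.00698), the liver diet difference of *Prss8* between CR20 and FED (-0.36 to 0.25, and up to 0.0784 with voom and quality weights), and the liver correlations of *Eif4e3* with *Ntrk2* (-0.18 to 0.0944) and *Prss8* (-0.0552 to 0.13).

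With the mouse as replicate block, 3, 3 and 2 genes were called between tissues, as without it, and no call changed. The liver *Ntrk2* value between CR20-HFD and FED-HFD ran from -1.42 to -1.29 over the alternatives, with an adjusted p no lower than 0.0639 (DESeq2). Depth limits *Prss8* and *Gpc1* in liver most, with as few as 7 and 32 counts.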
